A study of Homo sapiens with 8 samples.

Results

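The circadian clock genes described here were BHLHE40, BHLHE41, PER1, PER2, PER3, CRY1, CRY2, NR1D1, NR1D2 and CLOCK, taken as the probe sets annotated to one of these symbols and to no other gene. All 10 were measured, each by 1 probe set, among 18417 genes in all. RNA came from HCT116, an established human colorectal cancer line, expressing either a short hairpin RNA against CDK8 (shCDK8) or a control hairpin (shControl). CDK8 is the kinase of the detachable kinase module of Mediator, the complex that joins transcription factors to RNA polymerase II. The 4 groups were shCDK8 cells given medium with 10% fetal bovine serum for 30 min, shCDK8 cells left in starvation, shControl cells given the same serum for 30 min, and shControl cells left in starvation. Every sample, the stimulated ones included, had first been kept without serum for 40 h. Each group had 2 arrays. Whether the 2 were separate cultures is not stated in the labels, and p-values here measure only how far such arrays differ, which may be technical spread. The labels also do not say whether a line was a clone or a pool. Each line carried 1 hairpin, so the loss of CDK8 and any other difference between the lines cannot be told apart.

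The mammalian clock is a feedback loop of transcription. CLOCK and its partner BMAL1 bind a DNA element called the E-box and activate the PER and CRY genes, and the PER and CRY proteins then inhibit the pair that switched them on. NR1D1 and NR1D2 (the REV-ERB receptors) repress BMAL1, and BHLHE40 and BHLHE41 (also called DEC1 and DEC2) bind E-boxes themselves and repress the same targets. A serum pulse is a long-known way to set the clocks of cultured cells in step, and PER1 is known as an early target of the CREB transcription factor in that setting. The comparisons below ask which of these genes had moved at 30 min, and whether they did so alike in cells with less CDK8.

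The DNA just upstream of the start site is shown for 5 of the genes. BHLHE40 and PER1 were the pair that rose with serum, and BHLHE41 is the paralog of BHLHE40. CRY1 and NR1D2 were among the genes higher in shCDK8 cells. Each window covers the 250 bases before a RefSeq start (assembly GRCh38.p14), read 5′ to 3′ on the strand of the gene. Positions count back from the start site, so that the base next to it is -1. The windows lie at chr3:4979187-4979436 (plus strand) for BHLHE40, chr12:26125038-26125287 (minus) for BHLHE41, chr17:8152405-8152654 (minus) for PER1, chr12:107093550-107093799 (minus) for CRY1 and chr3:23945871-23946120 (plus) for the second start of NR1D2. Capitals mark letters that match one of the elements searched.
BHLHE40: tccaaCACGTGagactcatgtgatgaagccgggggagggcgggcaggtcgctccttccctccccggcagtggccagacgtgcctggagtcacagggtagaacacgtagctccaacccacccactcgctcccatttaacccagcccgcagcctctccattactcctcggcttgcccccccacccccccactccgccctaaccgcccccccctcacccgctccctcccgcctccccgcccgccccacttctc
BHLHE41: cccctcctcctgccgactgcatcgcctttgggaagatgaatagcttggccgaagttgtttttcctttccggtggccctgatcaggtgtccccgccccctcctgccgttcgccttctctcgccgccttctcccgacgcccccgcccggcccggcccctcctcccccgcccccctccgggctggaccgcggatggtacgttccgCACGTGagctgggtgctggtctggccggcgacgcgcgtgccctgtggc
PER1: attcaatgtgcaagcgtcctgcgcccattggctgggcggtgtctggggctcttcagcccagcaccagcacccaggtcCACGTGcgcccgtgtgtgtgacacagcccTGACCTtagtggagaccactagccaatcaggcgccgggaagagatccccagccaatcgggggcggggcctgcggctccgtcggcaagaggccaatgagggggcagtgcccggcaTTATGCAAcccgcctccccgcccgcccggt
CRY1: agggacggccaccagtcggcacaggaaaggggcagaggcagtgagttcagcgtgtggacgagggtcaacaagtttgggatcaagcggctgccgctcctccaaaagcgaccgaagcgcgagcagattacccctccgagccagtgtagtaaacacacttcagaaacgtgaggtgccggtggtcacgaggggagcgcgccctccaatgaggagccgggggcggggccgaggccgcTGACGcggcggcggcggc
NR1D2: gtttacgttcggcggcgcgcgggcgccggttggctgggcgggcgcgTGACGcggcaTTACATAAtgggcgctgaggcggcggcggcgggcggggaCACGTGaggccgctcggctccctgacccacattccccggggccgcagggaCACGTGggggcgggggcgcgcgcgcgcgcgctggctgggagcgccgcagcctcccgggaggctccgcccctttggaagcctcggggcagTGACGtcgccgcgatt
The E-box letters CACGTG stood at -245 in BHLHE40, -48 in BHLHE41, -173 in PER1, and -155 and -105 in NR1D2. They occurred in a window of 4 of the 10 genes (4 of 14 windows) and in 6.34% of all 35116 windows of that length. The cAMP response element TGACGTCA, which CREB binds, was in no window of the 10 genes and in 1.65% of all. Its core TGACG was in windows of 4 genes (PER2 at -53, CRY1 at -18, CRY2 and NR1D2). That made 5 of 14 windows, against 21.2% of all windows. The D-box TTATGNAA, the element of the PAR bZIP factors, was in 3 genes (PER1 at -30, PER3 at -177 and NR1D2 at -194). That made 3 of 14 windows, against 3.03% of all. The half-site AGGTCA of the ROR and REV-ERB element was in PER1 at -144 and in CRY2. These were 3 of 14 windows, against 12.1% of all, and the full element was not searched. The CArG box of serum response factor was in none of the 10 genes, against 1.16% of all. All elements were searched on both strands, and a full cAMP response element also counts as a match of its core. Elements outside these 250 bases, or with other letters, would be missed, so an absence here does not show that a gene lacks one. No element was matched in any window of NR1D1 or CLOCK, which were also higher in shCDK8 cells. The first window of NR1D2 and the second of PER3 held none either. The matches describe the letters in the windows and show no binding.

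Values are log2 probe set levels, with SD over 2 arrays for levels and SE for changes. The array medians were 6.44 to 6.51, and r across genes between arrays of a group was 0.997 to 0.998. The probe set of the targeted gene, annotated to CDK8 and to ADRA1B, read 7.05 ± 0.01 and 7.04 ± 0.07 in serum-treated and starved shCDK8 cells, against 9.20 ± 0.02 and 9.22 ± 0.02 in shControl cells (SD, n = 2). Of 7 epithelial markers, EPCAM read 11.7 to 11.8, KRT8 12.2 to 12.7 and CDH1 9.30 to 9.59. VIL1, a marker of intestinal brush border, was at 5.39 to 5.77, and CDX2 read 7.84 to 8.21. KRT8, KRT18 and CDH1 were higher and KRT19 lower in shCDK8 cells over both times, where 23.3% of all genes were called. Of 9 markers of blood, endothelium and mesenchyme, PTPRC read 3.53 to 3.66 and DCN 3.49 to 3.74. Not all were this low: COL1A1 read 7.95 to 8.50 and CD68 7.21 to 7.34. The remaining markers read from 4.73 (PECAM1) to 6.09 (PDGFRB). COL1A1 alone among the 9 passed a test, by 0.34 ± 0.06 with serum (adjusted p = 0.0292). The summed linear level of the 9 was 696.1 to 698.9 and 635.3 to 674.6 in serum-treated and starved shCDK8 cells, against 739.4 to 749.2 and 658.0 to 687.5 in shControl cells. This sum was higher with serum in both lines, and COL1A1 carried that rise. Without COL1A1, the summed level of the other 8 was 378.4 to 405.9 and 387.4 to 411.9 in serum-treated and starved shCDK8 cells, against 386.8 to 403.2 and 410.2 to 411.9 in shControl cells, no higher with serum. The part that these marker differences have in the results was not tested.

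Serum for 30 min raised 1 of the 10 clock genes in shCDK8 cells (BHLHE40) and 2 in shControl cells (BHLHE40 and PER1), and lowered none. Calls are limma's test with a Benjamini-Hochberg adjusted p below 0.05 over all 18417 genes. By that rule 0.250% of all genes were called higher and 0.00543% lower in shCDK8 cells (0.255% in all), and 0.424% higher and 0.0380% lower in shControl cells (0.462% in all). The median change of the 10 genes was 0.08 in shCDK8 and 0.05 in shControl cells, against -0.01 over all genes in either line. The arrays of the serum and starved groups did not overlap for 5 of the 10 genes in shCDK8 cells and for 7 in shControl cells, with 41.2% and 39.7% of all genes doing the same. The plot of every array shows that BHLHE40 and PER1 stand out from the other panels by the gap between serum and starved arrays.

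**Figure D1:**
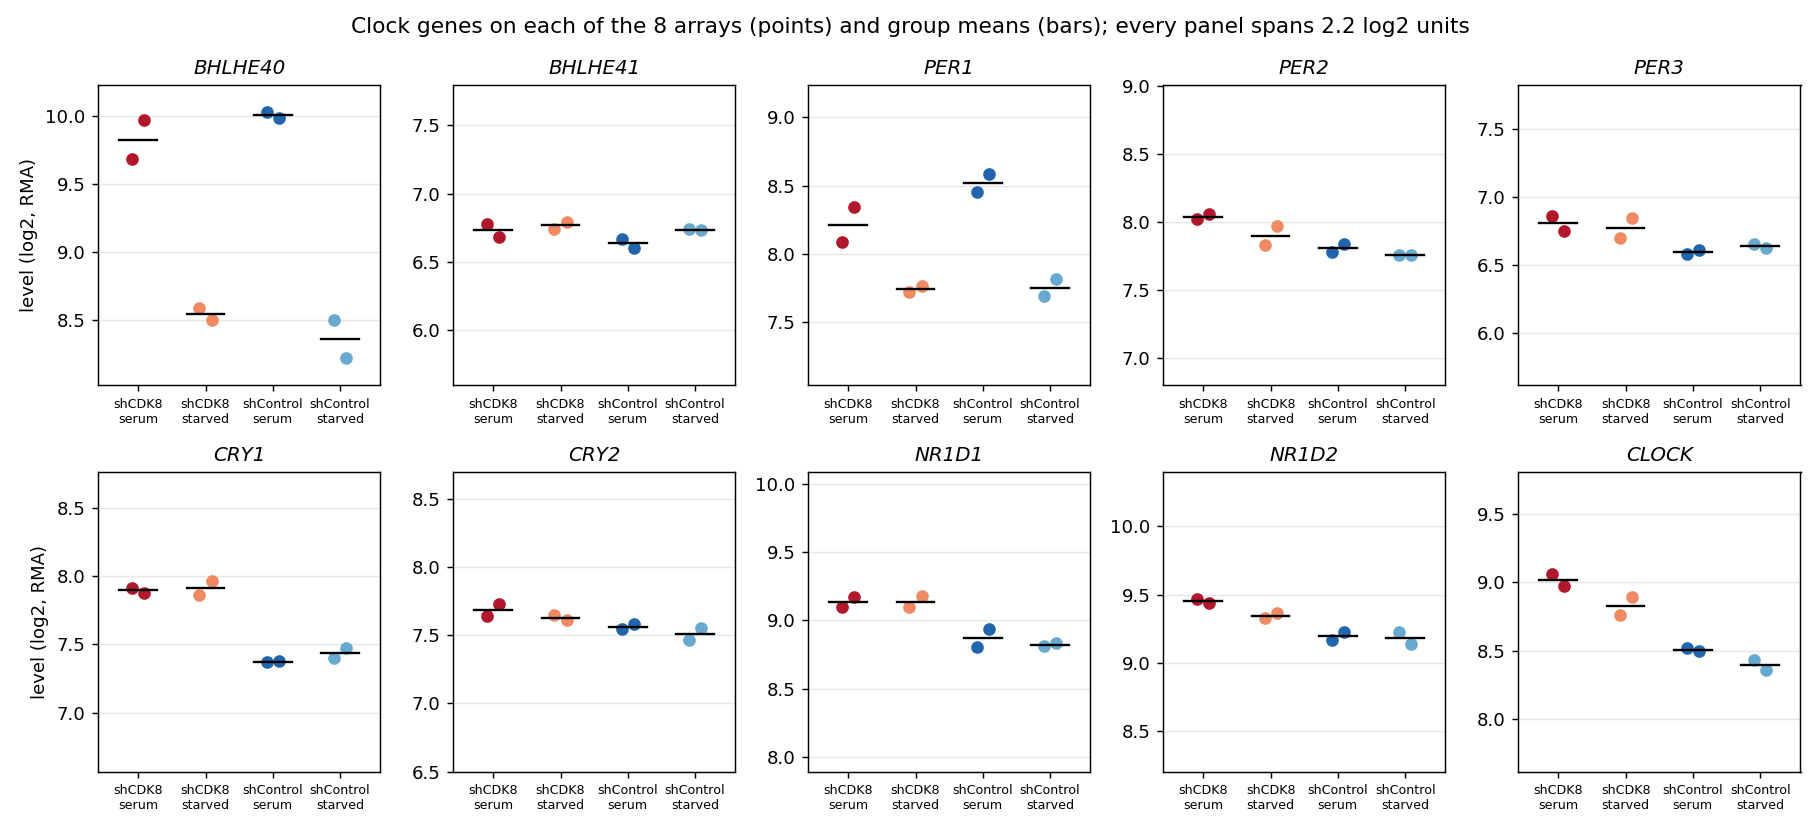
Level of each of the 10 clock genes on each of the 8 arrays (points, log2) with the mean of each group (bars), in panels that all span the same range. BHLHE40 read 9.68 to 10.03 on the serum arrays against 8.23 to 8.59 on the starved ones, PER1 was also higher on every serum array, and CRY1 and CLOCK were higher on every shCDK8 array.

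BHLHE40, an E-box-binding repressor of the clock, had the larger response. It read 9.68 and 9.97 in serum-treated and 8.59 and 8.50 in starved shCDK8 cells. In shControl cells it read 10.03 and 9.99 with serum and 8.50 and 8.23 in starvation. Every serum array lay above every starved array in both lines. The rise was 2.42-fold in shCDK8 cells (log2 1.28 ± 0.11 SE, adjusted p = 0.000702) and 3.12-fold in shControl cells (log2 1.64 ± 0.11, adjusted p = 6.92e-05). These were ranks 17 and 16 of 18417 by size of rise. In these bulk samples, a change in the number of cells that express a gene and a change in RNA per cell cannot be told apart. The call in each line held without any 1 of the 8 arrays. In shCDK8 cells it ended under the 1.5-fold minimum, a test against a 1.5-fold change in place of no change (adjusted p = 0.0687). A measured change above 1.5-fold can thus fail it. Over 16 alternatives the adjusted p was 5.95e-07 to 0.0687. Such ranges include this stricter test.

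PER1, a PER repressor of the loop, moved less. It read 8.09 and 8.34 with serum and 7.72 and 7.76 in starvation in shCDK8 cells. In shControl cells the values were 8.45 and 8.59 with serum and 7.69 and 7.82 in starvation. Serum and starved arrays were apart in both lines, and the starved arrays of the lines overlapped. PER1 rose 1.70-fold in shControl cells (log2 0.77 ± 0.09, adjusted p = 0.00724, rank 41). In shCDK8 cells the difference was 1.39-fold (log2 0.47 ± 0.09, 95% interval 0.26 to 0.68, rank 75) and did not pass (adjusted p = 0.1305). Averaged over both lines it rose 1.54-fold (log2 0.62 ± 0.07, adjusted p = 0.00175), and that call held without any 1 array. The call in shControl cells ended without the starved array 1 (adjusted p = 0.0744) or the serum array 2 of that line (0.0814) and with the 1.5-fold minimum, and its adjusted p ranged over 16 alternatives up to 1. In shCDK8 cells PER1 passed when the variance prior followed intensity (adjusted p = 0.0179, range up to 1).

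The other 8 clock genes did not pass with serum in either line, nor in the average of both, in which 0.760% of all genes were called (0.684% higher and 0.0760% lower) and BHLHE40 and PER1 were the 2 called members. CLOCK, the activator of the loop, had the lowest p of the 8 in shCDK8 cells and in the average: 9.06 and 8.97 with serum and 8.76 and 8.89 in starvation in shCDK8 cells, and 8.52 and 8.49 with serum and 8.44 and 8.36 in starvation in shControl cells. Its arrays were apart in both lines, with differences of 0.19 (95% interval 0.03 to 0.35, adjusted p = 0.482) and 0.11 (-0.05 to 0.27, adjusted p = 0.711). PER2, a further PER repressor, differed by 0.14 in shCDK8 cells (-0.02 to 0.29) and 0.05 in shControl cells (-0.10 to 0.21), and NR1D2 by 0.11 and 0.02. PER3, CRY1, CRY2 and NR1D1 differed by between -0.06 and 0.06 in either line. BHLHE41, the paralog of BHLHE40 with the E-box letters nearest its start among the windows shown, differed by -0.04 in shCDK8 cells (-0.19 to 0.11) and -0.10 in shControl cells (-0.25 to 0.05), and read 6.60 to 6.79 over all arrays. The intervals of these 8 genes thus leave room for changes of at most 0.35 in shCDK8 cells and 0.27 in shControl cells, and the plot of serum changes sets them beside BHLHE40 and PER1.

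**Figure D2:**
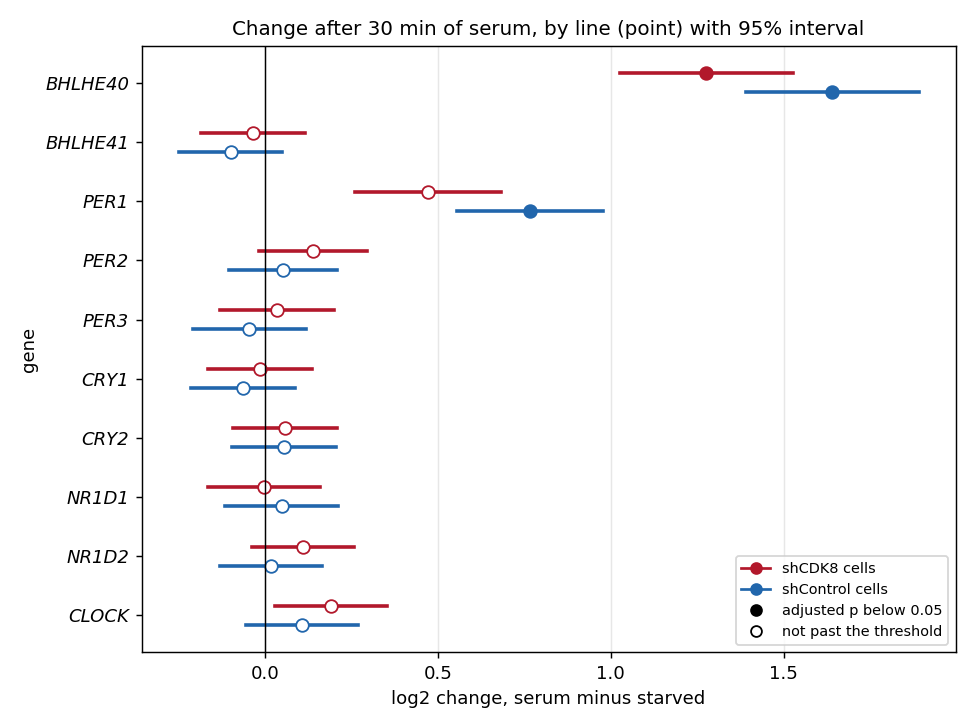
Change of each clock gene with serum (log2, serum minus starved; points) with its 95% interval (lines), in shCDK8 cells (red) and shControl cells (blue); filled points passed the test. BHLHE40 passed in both lines at 1.28 and 1.64, PER1 passed in shControl cells and lay at 0.47 in shCDK8 cells, and the other 8 genes lay between -0.10 and 0.19.

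Whether serum acted differently in the lines was tested as the difference between their responses. None of the 10 genes passed, and 0% of all 18417 genes did (limma, lowest adjusted p over all genes 0.203). At an unadjusted p below 0.05 there was 1 of the 10 members and 703 of all genes (3.82%). That member was BHLHE40, whose rise was smaller by 0.36 ± 0.16 in shCDK8 cells (95% interval of the difference -0.72 to -0.01, unadjusted p = 0.0449, adjusted p = 0.9998). For PER1 the difference was -0.29 ± 0.13 (-0.59 to 0.0044, unadjusted p = 0.0528, adjusted p = 0.9998). Both differences kept their sign under all 15 alternatives, and neither passed after adjustment under any of them. For the other 8 genes the differences lay between -0.05 and 0.09. PER1 passed in shControl and not in shCDK8 cells, but by this test its responses were not shown to differ.

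Between the lines, several clock genes stood at a higher level in shCDK8 cells than in shControl cells. After serum 4 of the 10 genes were higher (CRY1, CLOCK, NR1D1 and NR1D2), and none was lower. In starved cells 3 were higher (CRY1, CLOCK and NR1D1), and none was lower. By the same rule 7.70% of all genes were higher and 6.54% lower after serum (14.2% in all), and 7.13% were higher and 6.28% lower in starvation (13.4% in all). The median difference of the 10 genes was 0.22 after serum and 0.16 in starved cells, against -0.01 over all genes at both times. The arrays of the lines did not overlap for 10 of the 10 genes after serum and for 9 in starvation, with 53.9% and 52.1% of all genes doing the same. The same 8 arrays enter the serum changes and the comparisons of the lines, so these are not independent of each other.

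CRY1, a CRY repressor of the loop, differed most among the 10. It read 7.91 and 7.88 in serum-treated and 7.86 and 7.96 in starved shCDK8 cells. In shControl cells it read 7.37 and 7.38 with serum and 7.40 and 7.47 in starvation. The 4 arrays of shCDK8 cells all lay above the 4 of shControl cells, and serum and starved arrays of shCDK8 cells overlapped. The level was 1.44-fold higher after serum (log2 0.52 ± 0.07, adjusted p = 0.000740) and 1.39-fold higher in starvation (log2 0.47 ± 0.07, adjusted p = 0.00134).

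CLOCK, whose array values are given above, showed the same layout: the lowest of the 4 shCDK8 arrays was at 8.76 and the highest of the 4 shControl arrays at 8.52. It was 1.43-fold higher in shCDK8 cells after serum (log2 0.51 ± 0.07, adjusted p = 0.00130) and 1.35-fold higher in starvation (log2 0.43 ± 0.07, adjusted p = 0.00364). The calls on CRY1 and CLOCK held at both times without any 1 of the 8 arrays. They ended with the 1.5-fold minimum (adjusted p = 1 in each case). The level of BMAL1, the partner of CLOCK, read 6.95 to 7.19 over all arrays and differed by -0.03 after serum and -0.10 in starvation, not past the threshold (adjusted p = 0.878 and 0.521).

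NR1D1 and NR1D2, the REV-ERB receptors, had smaller differences. NR1D1 read 9.10 and 9.17 with serum and 9.10 and 9.18 in starvation in shCDK8 cells. In shControl cells it read 8.80 and 8.94 with serum and 8.81 and 8.83 in starvation. All 4 shCDK8 arrays were above all 4 shControl arrays. NR1D1 was 1.20-fold higher after serum (log2 0.26 ± 0.07, adjusted p = 0.0386), but that call ended without any 1 of the 8 arrays (adjusted p = 0.0511 to 0.246), when the arrays compared were fitted alone (0.0731) and with each array centred on its median (0.0536). In starvation it was 1.24-fold higher (log2 0.31 ± 0.07, adjusted p = 0.0188), and that call ended without shCDK8 starved array 1 (0.0501) or 2 (0.119) or shControl starved array 1 (0.0845) or 2 (0.0697).

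NR1D2 read 9.47 and 9.44 with serum and 9.33 and 9.36 in starvation in shCDK8 cells. In shControl cells it read 9.17 and 9.23 with serum and 9.22 and 9.14 in starvation, so that again the lines did not overlap at either time. It was 1.19-fold higher after serum (log2 0.26 ± 0.07, adjusted p = 0.0287), a call that ended without shCDK8 serum array 1 (0.1205) or 2 (0.0911) or shControl serum array 1 (0.170) or 2 (0.0839). In starvation the difference was 0.17 (95% interval 0.02 to 0.31) and did not pass (adjusted p = 0.148).

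Averaged over both times, 6 of the 10 clock genes were higher in shCDK8 cells and none lower, where 12.0% of all genes were higher and 11.3% lower (23.3% in all). The 6 were CRY1 (1.41-fold, log2 0.50 ± 0.05, adjusted p = 5.33e-05), CLOCK (1.39-fold, log2 0.47 ± 0.05, adjusted p = 0.000127), NR1D1 (1.22-fold, log2 0.29 ± 0.05, adjusted p = 0.00263), NR1D2 (1.16-fold, log2 0.21 ± 0.05, adjusted p = 0.00875), PER2 and PER3. The first 4 of these held without any 1 array, and all 6 ended with the 1.5-fold minimum. PER2 read 8.02 and 8.06 with serum and 7.83 and 7.97 in starvation in shCDK8 cells, against 7.78 and 7.84 with serum and 7.755 and 7.757 in starvation in shControl cells. Among its 4 groups, starved shCDK8 and serum-treated shControl arrays overlapped and the other neighbours did not. PER2 was higher by 0.19 ± 0.05 (adjusted p = 0.01998), a call that ended without shCDK8 serum array 2 (0.0606), shCDK8 starved array 2 (0.0750), shControl serum array 1 (0.0754) or shControl starved array 1 (0.0501).

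PER3, the remaining PER gene, read 6.86 and 6.75 with serum and 6.70 and 6.84 in starvation in shCDK8 cells, and 6.58 and 6.61 with serum and 6.65 and 6.63 in starvation in shControl cells. It was higher by 0.17 ± 0.05 over both times (adjusted p = 0.0391). The call held without shCDK8 starved array 1 or shCDK8 serum array 2 and ended without any of the other 6 arrays (adjusted p = 0.0738 to 0.135), with an intensity trend (0.0638), with the replicate number as a block (0.0550) and with each array centred on its median (0.0581). CRY2, the second CRY repressor, read 7.47 to 7.73 over all arrays, and its difference of 0.12 (95% interval 0.02 to 0.23) did not pass (adjusted p = 0.100).

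BHLHE40, BHLHE41 and PER1 did not pass in any comparison of the lines. BHLHE40 differed by -0.18 after serum (95% interval -0.43 to 0.07, adjusted p = 0.364) and by 0.18 in starvation (-0.07 to 0.43, adjusted p = 0.355). Its 4 group means ran, from high to low, from serum-treated shControl through serum-treated shCDK8 and starved shCDK8 to starved shControl cells. Neighbouring groups did not overlap, but by little between the lines. The nearest shControl and shCDK8 arrays read 9.9858 and 9.9699 after serum, and 8.5017 and 8.5048 in starvation. BHLHE41 differed by 0.10 and 0.03. PER1 differed by -0.31 ± 0.09 after serum (-0.52 to -0.09, adjusted p = 0.0607) and by -0.01 in starvation. Its difference after serum passed with an intensity trend (adjusted p = 0.0220), the replicate block (0.0267), dim genes left out (0.0416), each array centred on its median (0.0476) and without shCDK8 serum array 2 (0.0250), within a range up to 1. The plot of differences between the lines sets all 10 genes side by side.

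**Figure D3:**
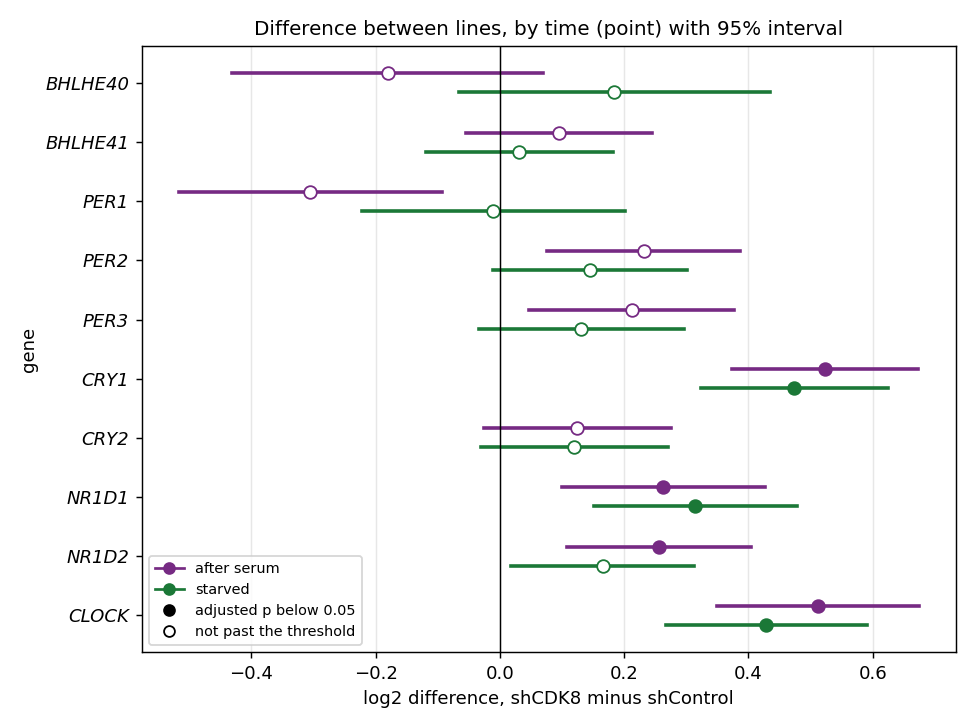
Difference of each clock gene between the lines (log2, shCDK8 minus shControl; points) with its 95% interval (lines), after serum (purple) and in starvation (green); filled points passed the test. CRY1 and CLOCK lay between 0.43 and 0.52 at both times, NR1D1 passed at both times, NR1D2 passed after serum, and PER1 lay at -0.31 after serum.

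The genes whose profile over the 8 arrays was most like that of a member were listed for the member with the largest serum change and the one with the largest line difference, out of 239 genes whose group means spanned at least 1 on the log2 scale. For BHLHE40 they were JUN, ATF3, CCN1, NR4A3 and NR4A2, with Pearson's r of 0.996, 0.988, 0.986, 0.983 and 0.983. JUN and ATF3 are AP-1 and ATF family transcription factors, CCN1 is a secreted matrix protein, and the NR4A genes are orphan nuclear receptors. For CRY1 they were SLCO3A1, an organic anion transporter, CEACAM1, a cell adhesion molecule, GRIN2B, a glutamate receptor subunit, ZNF827, a zinc finger protein, and TP53I3, an oxidoreductase known as a p53 target, with r of 0.993, 0.992, 0.992, 0.992 and 0.991. The arrays within a group are alike by design and the groups differ, so that these correlations over 8 arrays mainly follow 4 group means. The 5 genes like BHLHE40 had serum changes of 2.69 to 3.61 on the log2 scale over both lines, larger than the 1.46 of BHLHE40, as the plot of profiles shows.

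**Figure D4:**
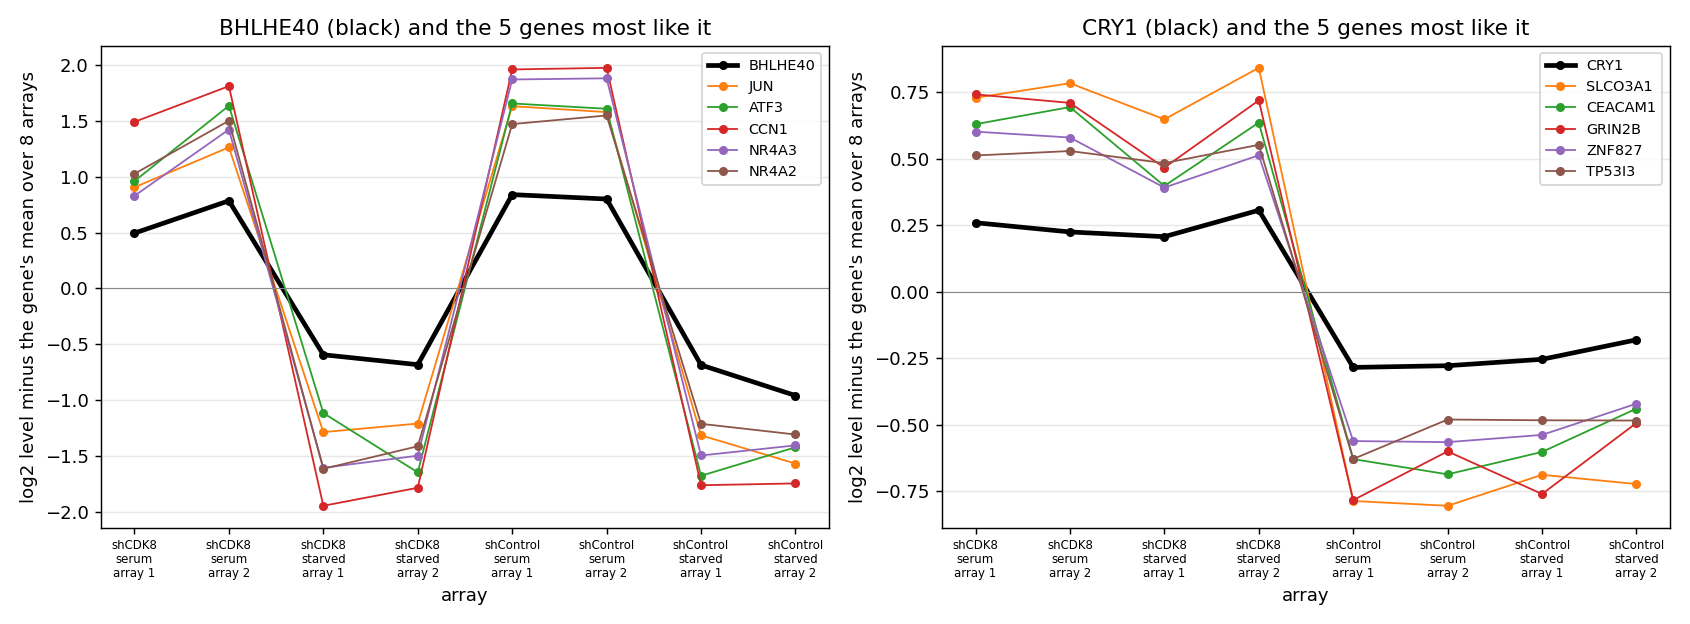
Profiles of BHLHE40 (left) and CRY1 (right), in black, with the 5 genes most like each, as log2 level minus the mean of the gene over the 8 arrays. The left profiles are high on the 4 serum arrays and low on the 4 starved ones, and the right profiles are high on the 4 shCDK8 arrays and low on the 4 shControl ones.

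Of 42 other genes of the clock pathway listed by role, 37 were measured by a probe set of their own, and the remaining 5 are not analysed here. With serum none of the 37 passed in shCDK8 cells (limma, 6 at an unadjusted p below 0.05, as had 1766 or 9.59% of all genes). In shControl cells 1 passed, beside 0.462% of all genes: NFIL3, a bZIP repressor of D-box genes. NFIL3 read 8.60 and 8.52 with serum and 8.21 and 8.26 in starvation in shCDK8 cells, against 8.82 and 8.63 with serum and 8.23 and 7.99 in starvation in shControl cells. It rose 1.53-fold in shControl cells (log2 0.61 ± 0.09, adjusted p = 0.0240) and differed by 0.32 ± 0.09 in shCDK8 cells (adjusted p = 0.411). The call in shControl cells ended without shCDK8 starved array 1 or 2 (0.0536 each), shControl serum array 1 (0.202) or 2 (0.0575) or shControl starved array 2 (0.189), and when the arrays compared were fitted alone (0.0883). Averaged over the lines NFIL3 rose by 0.47 ± 0.07 (adjusted p = 0.0107), except without shCDK8 starved array 1 (0.0631).

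WEE1 and CREM were the other 2 of the 37 called over both lines, where 0.760% of all genes were called. CREM read 5.13 to 5.55 over all arrays, below the 25th percentile of level, so it was absent when dim genes were left out. CREM, a CREB family factor, rose by 0.24 ± 0.05 (adjusted p = 0.0496), which ended without any 1 array (0.0943 to 0.209), with the replicate block (0.0874) and with an intensity trend (0.1095), within a range up to 1. WEE1, a mitotic inhibitor kinase whose gene is a clock output, has 3 probe sets that disagree in size. The brightest, used here, rose by 0.28 ± 0.05 (adjusted p = 0.0337), which ended without any 1 array (0.0510 to 0.161). The other 2 probe sets of WEE1, which the annotation ties to it through a single accession each, moved far more. The first of them (7938364) read 8.99 and 9.04 with serum and 7.02 and 7.15 in starvation in shCDK8 cells, against 9.90 and 9.71 with serum and 7.54 and 7.45 in starvation in shControl cells. All serum arrays lay above all starved ones. In a fit of all 19460 probe sets with 1 gene, chosen after seeing the data, it rose 3.81-fold in shCDK8 cells (log2 1.93 ± 0.08, adjusted p = 4.28e-06) and 4.97-fold in shControl cells (log2 2.31 ± 0.08, adjusted p = 1.38e-06). The second (7938366) rose 3.80-fold in shCDK8 cells and 5.87-fold in shControl cells. The size of the WEE1 change therefore rests on which probe set is read.

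Between the lines, 2 of the 37 pathway genes were higher and 4 lower in shCDK8 cells after serum, and 2 were higher and 5 lower in starvation. These 6 and 7 of 37 stand beside 14.2% and 13.4% of all genes called in the same comparisons. The largest difference was in PRKAA2, a catalytic subunit of AMP-activated kinase, which phosphorylates CRY1. PRKAA2 read 7.98 and 8.09 with serum and 7.52 and 7.83 in starvation in shCDK8 cells, against 6.01 and 6.08 with serum and 6.14 and 6.005 in starvation in shControl cells. It was 3.97-fold higher after serum (log2 1.99 ± 0.10, adjusted p = 1.93e-06) and 3.04-fold higher in starvation (log2 1.60 ± 0.10, adjusted p = 9.10e-06). PRKAA1, the other catalytic subunit, named after its values were seen, was lower in shCDK8 cells by 0.28 on the log2 scale in starvation (adjusted p = 0.0244). That call ended without any 1 of the 4 starved arrays.

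RPS6KA5, a kinase that acts on CREB and histone H3, was the most reduced of the pathway genes. It read 6.73 and 6.91 with serum and 6.79 and 6.93 in starvation in shCDK8 cells, and 7.91 and 7.93 with serum and 7.67 and 7.66 in starvation in shControl cells. RPS6KA5 was lower in shCDK8 than in shControl cells by 1.10 on the log2 scale after serum (adjusted p = 1.88e-05) and by 0.80 in starvation (adjusted p = 0.000168). TIMELESS and TIPIN, partners in a replication fork complex, were lower in shCDK8 cells at both times. TIMELESS was lower by 0.43 after serum (adjusted p = 0.00332) and by 0.58 in starvation (0.000609). TIPIN was lower by 0.45 after serum (adjusted p = 0.0137) and by 0.445 in starvation (0.0159). The TIPIN call after serum ended without shCDK8 serum array 2 (0.0987), shControl serum array 1 (0.0603) or 2 (0.0842), and the call in starvation without shCDK8 starved array 1 (0.116) or shControl starved array 1 (0.108). HLF, a PAR bZIP activator of D-box genes, was higher in shCDK8 cells by 0.52 after serum (adjusted p = 0.00162) and by 0.38 in starvation (0.00946). The second call ended without shCDK8 starved array 1 or shControl starved array 2. CSNK1A1, a casein kinase, named after its values were seen, was lower in shCDK8 cells by 0.39 after serum (adjusted p = 0.00283) and by 0.44 in starvation (0.00139).

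Averaged over both times, 5 of the 37 were higher and 9 lower in shCDK8 cells, where 12.0% of all genes were higher and 11.3% lower (23.3% in all). The 14 became 9 in all without shControl serum array 1 or 2. The median difference of the 37 was -0.03, against -0.01 over all genes. In the difference between the serum responses none of the 37 passed, with 2 (PRKAA2 and RPS6KA5) at an unadjusted p below 0.05, beside 3.82% of all genes. The plot of the pathway genes groups them by role.

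**Figure D5:**
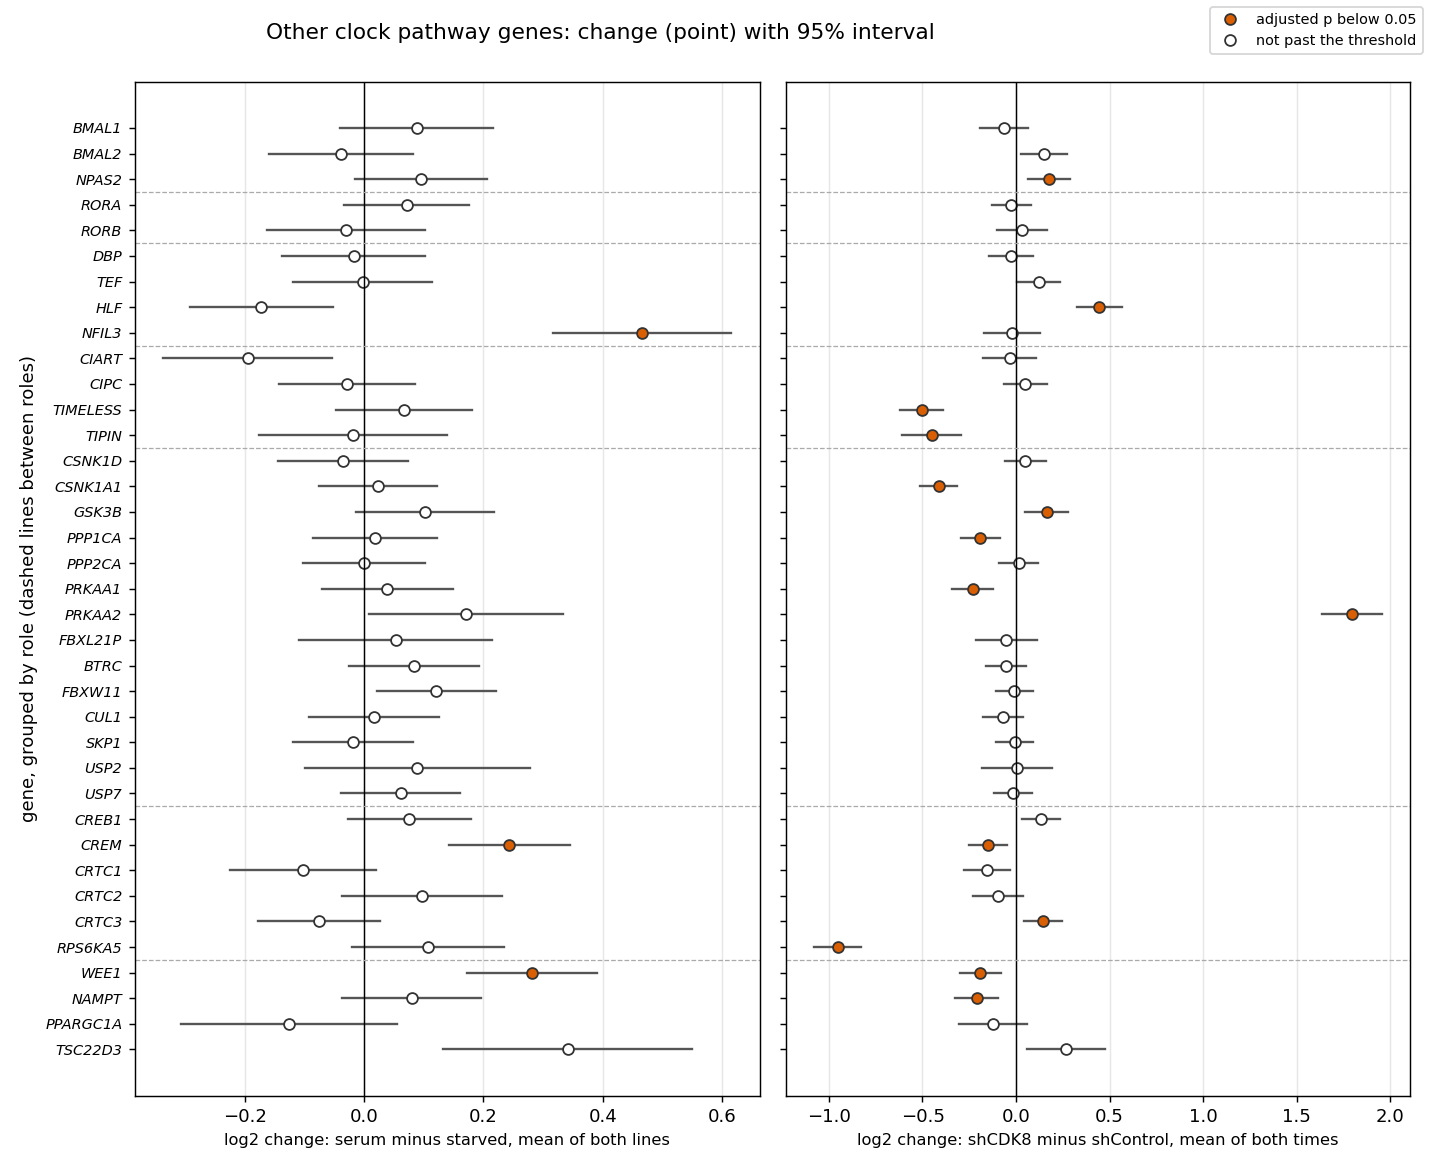
Change of the 37 other pathway genes with serum, averaged over both lines (left, log2, serum minus starved), and between the lines, averaged over both times (right, log2, shCDK8 minus shControl), as points with 95% intervals; filled points passed the test. NFIL3, WEE1 and CREM passed on the left, where all points lie between -0.20 and 0.47; on the right PRKAA2 stands at 1.80 and RPS6KA5 at -0.95.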

How the data were processed

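Total RNA of 8 HCT116 samples was measured on Affymetrix human gene arrays, with biotin-labelled cRNA per the labels' protocols. The deposited values were log2 probe set levels made with RMA (background correction, quantile normalization and summary of probes), per the submitters' processing notes; neither its version nor an annotation build is given in the sources used here. No column was left unused (0 of the value columns), and samples were grouped by their titles. Of 33297 probe sets, 19460 were paired with 1 gene, 1754 with several and 12083 were not listed. Symbols were checked through Entrez identifiers in a RefSeq gene table (assembly GRCh38.p14), which matched 19429 and changed 0. The probe set with the highest mean stood for a gene, which left 18417 genes. Probe set values depend on their probes, so levels set side by side or summed across genes, as for the markers, are only a rough guide.

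No filter or further normalization was applied. The means of the 4 groups were modelled in limma 3.58.1 (R 4.3.3; 4 residual degrees of freedom, prior 5.49), with 7 contrasts, two-sided moderated tests and Benjamini-Hochberg adjustment over all genes within a contrast. The number of arrays limits the precision. On simulated data for serum in shControl cells (18417 genes, 50 shifted per size), shifts of 0.5, 1, 2 and 3 were recovered in 80%, 94%, 100% and 100% of genes, with 6 of 193 calls false. The real comparison called 85 genes. With fewer calls the Benjamini-Hochberg cutoff is stricter, so these rates can overstate recovery in the real data.

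As alternatives, the variance prior followed intensity, only the arrays compared were fitted, and the replicate number served as a block. Genes below the 25th percentile of level were dropped, arrays were normalized by cyclic loess or median centring, and a gene's probe sets were averaged. For the 1.5-fold minimum, changes were tested against 1.5-fold in place of no change (limma's treat). Each array was also left out in turn, which assumes that the lone array left varies as the remaining groups do. A crossed block and a fit of every probe set with 1 gene were added after seeing the data. Cyclic loess and median centring moved the median of all genes by less than 0.1 on the log2 scale. Same-numbered arrays did not deviate together (correlations of deviations -0.19 to 0.13 over 6 pairs of groups), so the number was not taken to pair them.

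The genes named were the 10 members, the pathway genes past the threshold (at most 4 per contrast, by size) and, for BHLHE40 and CRY1, the 5 genes with the highest Pearson's r over the arrays. Outside this rule are the markers, the measured neighbours that overlap members, and genes marked as named after their values were seen. BMAL1, which passed in no comparison, was named as the partner of CLOCK. The members, the pathway list and the markers were chosen with earlier results of these data known. Promoter windows and gene positions came from RefSeq tables. Figures were drawn with matplotlib 3.10.9.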

Additional observations from a re-analysis of the deposited data

How the results depend on the processing

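Of 1090 changes of clock genes under alternatives, 1031 stayed on their side of the threshold, 10 passed newly, 49 no longer passed, and 0 that had passed reversed. The test against a 1.5-fold change left 0 clock genes called with serum in shCDK8 cells (1 without it), 1 in shControl cells (2) and 1 over both lines (2). Between the lines it left 0 after serum (4), in starvation (3) and over both times (6). With an intensity trend 2 were called with serum in shCDK8 cells. Leaving out 1 array gave 1 call with serum in shCDK8 cells throughout, 1 to 2 in shControl cells and 2 over both lines, and between the lines 2 to 3 after serum, 2 to 3 in starvation and 4 to 6 over both times. In the difference between responses 0 were called under every alternative run.

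With the replicate number as a block the counts were 1, 2 and 2 with serum (shCDK8, shControl, both), 5, 3 and 5 between the lines (after serum, starvation, both) and 0 in the difference of responses. The crossed block called 3 in starvation. Of the 37 other pathway genes the block called 0, 1 and 2 with serum, 6, 7 and 12 between the lines and 0 in the difference of responses.

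For the 37 other pathway genes, the 1.5-fold minimum left 0 with serum in shControl cells (1 without it) and 0 over both lines (3), and 2, 1 and 2 between the lines (6, 7 and 14). An intensity trend called 1 with serum in shCDK8 cells (0 without it), and 10 and 11 between the lines. The mean of probe sets called 1 with serum in shCDK8 and 2 in shControl cells, and fitting the compared arrays alone called 0 in shControl cells. Leaving out 1 array gave 0 to 1 with serum in shControl cells, 0 to 1 over both lines, 5 to 6 between the lines after serum, 4 to 7 in starvation and 9 to 12 over both times. The cause of these shifts was not tested, apart from WEE1, whose probe sets differ. With 2 arrays a group, the size that passed differed between comparisons: PER1 did not pass at 0.47 with serum in shCDK8 cells, and NR1D2 passed at 0.26 between the lines after serum.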

Other observations

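Some of the clock genes share their locus with another gene, and the array values of those neighbours can be set beside them. NR1D1 overlaps THRA, a thyroid hormone receptor gene, whose difference between the lines over both times was -0.07 (adjusted p = 0.431) where that of NR1D1 was 0.29. CLOCK overlaps TMEM165, a Golgi membrane protein gene, at 0.02 (adjusted p = 0.825) where CLOCK was at 0.47. NR1D2 overlaps NKIRAS1, an NF-kappa-B inhibitor-interacting gene, at 0.05 (adjusted p = 0.571) where NR1D2 was at 0.21. That average joins opposite signs: NKIRAS1 differed by -0.15 after serum and by 0.25 in starvation. NR1D2 differed by 0.26 and 0.17 at those times. The neighbour of BHLHE41, SSPN, differed by -0.05 (adjusted p = 0.659). None of these 4 neighbours passed the threshold in that comparison. BHLHE40, PER1, PER2 and PER3 overlap RNA genes that are not analysed here.

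The brightest probe set of WEE1 and the other 2 also gave unlike values between the lines after serum, a contrast not tested between probe sets. The brightest differed by -0.15 (adjusted p = 0.197 in the fit of all 19460 probe sets), and the others by -0.80 (adjusted p = 0.000261) and -0.84 (adjusted p = 0.000497). Their serum responses differed between the lines by 0.07, -0.38 and -0.63, none past the threshold (adjusted p = 0.9997, 0.9997 and 0.929). By size of rise with serum over both lines the 2 probe sets stood at ranks 11 and 10 of 19460, against rank 197 for the brightest.

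Outside the activators, repressors and receptors already described, NAMPT, the rate-limiting enzyme of NAD salvage and a clock output gene, was named after its values were seen. Its 2 probe sets were lower by 0.21 and 0.22 on the log2 scale in shCDK8 than in shControl cells over both times (adjusted p = 0.0159 and 0.00751 in the fit of all probe sets). The call on the brighter of them ended, in the fit of 1 probe set a gene, without shControl serum array 1.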
